A study of Mus musculus with 10 samples.

Results

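Mhrt (Myheart) is a long non-coding RNA gene of the mouse heart, transcribed from the strand opposite Myh7. Every transcript that GENCODE release M21 assigns to Mhrt was taken from the deposited table, which gave 2 of its 20741 transcripts, Mhrt-201 and Mhrt-202, and 1 of the 14771 genes and assembled loci left after summing. RNA had been sequenced from left ventricle collected 6 weeks after transverse aortic constriction (TAC), in which a ligature narrows the aorta and raises the pressure the ventricle works against. There were 4 Sirt5 knockout samples, numbered 2, 3, 4 and 5, and 6 wild-type samples, numbered 1, 3, 4, 5, 6 and 7. Sirt5 encodes a mitochondrial lysine deacylase that removes succinyl, malonyl and glutaryl groups.

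The labels give the strain as C57BL/6, and the series' design text gives it as C57BL/6N. The design text describes male mice aged 5 weeks, CRISPR/Cas9 as the method behind a conventional knockout, and a tamoxifen-inducible Cre-ERT2 system with 1 mg of tamoxifen daily for 10 days and a wait of 4 weeks before TAC. By its wording every mouse was injected with tamoxifen, wild type included, while which genotype carried Cre is unclear. No source used here names the promoter that drives Cre. All 10 samples come from banded hearts, and sham-operated hearts were not analysed here. Separate animals are not stated for the replicates, so each p-value below rests on variation among these libraries alone, and that variation may be technical.

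Heart muscle cells of the mouse carry a pair of neighbouring myosin heavy chain genes. Myh6 encodes the fast alpha chain of the adult ventricle, and Myh7 encodes the slow beta chain of the fetal ventricle, which returns under pressure load. Mhrt starts between them and runs into Myh7 on the other strand. In mice, Mhrt is known to be restricted to heart muscle cells, to fall under pressure load, and to bind Brg1, the ATPase of a chromatin remodelling complex that turns the myosin balance from Myh6 to Myh7 in stressed hearts.

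The gene (ENSMUSG00000097652.2, class antisense) lies on the plus strand of GRCm38 at chr14:54968678-54974349. Myh6 and Myh7 lie on the minus strand on either side of its start, at chr14:54941921-54966927 and chr14:54970684-54994626. The start of Mhrt-202 is separated from the start of Myh6 by 1750 bases. Mhrt-201 (ENSMUST00000181782) spans chr14:54968787-54974349 and has 5 exons with 828 bases in all. Mhrt-202 (ENSMUST00000185798) spans chr14:54968678-54969577 and has 2 exons with 447 bases in all. The ends at which they part, exons 1 to 3 of Mhrt-201 (290 bases) and both exons of Mhrt-202 (170 and 277 bases), are printed 5′ to 3′ from the GENCODE M21 transcript sequences, because this structure decides which reads can tell the isoforms apart and which cannot be told apart from Myh7 without strand. Capitals mark, in Mhrt-201, bases that lie opposite a Myh7 exon and, in Mhrt-202, the bases it shares with Mhrt-201.

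Mhrt-201 exons 1 to 3, chr14:54968787-54972912: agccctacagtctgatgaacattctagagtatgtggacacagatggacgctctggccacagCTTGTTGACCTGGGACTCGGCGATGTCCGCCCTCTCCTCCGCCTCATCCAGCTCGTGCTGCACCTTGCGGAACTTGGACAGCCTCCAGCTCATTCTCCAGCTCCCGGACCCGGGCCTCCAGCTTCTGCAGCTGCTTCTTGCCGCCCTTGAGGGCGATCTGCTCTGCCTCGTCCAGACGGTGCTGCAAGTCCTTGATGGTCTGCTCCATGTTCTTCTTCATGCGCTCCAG

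Mhrt-202 exon 1, chr14:54968678-54968847: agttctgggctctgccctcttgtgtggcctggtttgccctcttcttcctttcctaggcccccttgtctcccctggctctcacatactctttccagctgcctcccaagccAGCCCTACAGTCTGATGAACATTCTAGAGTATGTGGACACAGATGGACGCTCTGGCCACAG

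Mhrt-202 exon 2, chr14:54969301-54969577: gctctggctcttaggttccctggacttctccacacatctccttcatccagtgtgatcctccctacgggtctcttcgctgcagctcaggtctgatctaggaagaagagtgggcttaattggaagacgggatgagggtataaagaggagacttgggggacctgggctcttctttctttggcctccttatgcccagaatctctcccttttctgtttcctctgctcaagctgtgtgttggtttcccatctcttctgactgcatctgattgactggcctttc

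The isoforms share 61 bases, which are the whole of exon 1 of Mhrt-201 and the last bases of exon 1 of Mhrt-202. Transcription of Mhrt-202 starts 109 bases earlier, and both first exons end at the same splice donor. The donor is joined across an intron of 2562 bases in Mhrt-201 and across an intron of 453 bases in Mhrt-202. Mhrt-201 thus has 767 bases of its own and Mhrt-202 has 386. They also differ in how they meet Myh7. In Mhrt-201, 484 bases (58.5%) lie opposite Myh7 exons, spread over 4 of its exons, 3 of which lie wholly inside Myh7 exons. Mhrt-202 ends 1106 bases before the annotated end of Myh7 and has 0 bases opposite a Myh7 exon.

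**Figure D1:**
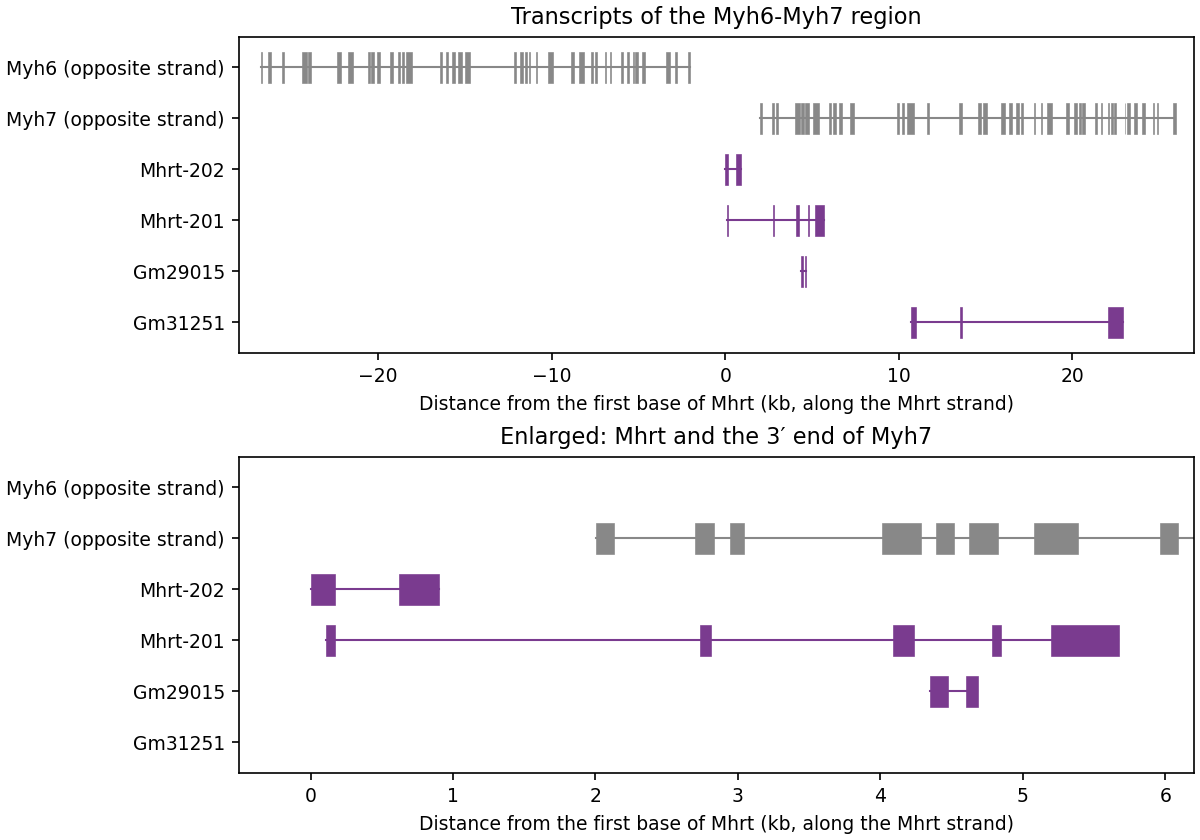
Map of the Myh6 and Myh7 region, with distance from the start of Mhrt in kilobases on the horizontal axis and boxes for exons. Mhrt-202 ends before Myh7, while Mhrt-201 runs into the Myh7 exons on the opposite strand, as do Gm29015 and Gm31251.

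Values are FPKM as deposited, a level that corrects for transcript length and for the size of the library. Libraries in which the second cDNA strand is digested keep the strand of the RNA, but no source used here says whether the quantification made use of it. Reads of Myh7 exons and of Mhrt-201 may therefore not have been told apart where they face each other, whereas Mhrt-202 faces no Myh7 exon. The table holds 0 of the 19 genes of the pathway list (Myh6, Myh7, the Brg1 gene Smarca4, Hdac2, Nppa and others), so neither myosin was set beside Mhrt. Of 31 marker names for cardiac cell types it holds 7. Mhrt is the 1 heart muscle marker among them, and the endothelial and blood lists have 0 in the table. The label left ventricle could therefore be checked through those 7 markers only. In bulk tissue, fewer cells of a type and less RNA per cell cannot be told apart.

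Depth estimated from the smallest steps between FPKM values was 22700000 to 25800000 mapped fragments in knockout samples and 24700000 to 29800000 in wild-type samples (exact permutation test over 210 splits, two-sided p = 0.0571). Knockout replicate 5 stood apart from the other libraries. Its median correlation with them was 0.574, against 0.687 to 0.804 for the other 9 samples, and its Malat1 level was 951 FPKM, against 59.8 to 78.9 FPKM in the other knockout samples and 58.4 to 81.8 FPKM in wild-type samples. The 3 fibroblast markers in the table (Dnm3os, Meg3 and H19, of 7 listed) summed to 16.8 FPKM in it, against 3.01 to 6.25 FPKM in the other knockout samples and 2.19 to 5.08 FPKM in wild-type samples. The macrophage marker Ifi30 was at 21.4 FPKM in it, 2.38 to 4.27 FPKM in the other knockout samples and 2.18 to 3.92 FPKM in wild-type samples. Knockout replicate 5 had the lowest value of the 10 samples in 28.7% of 261 annotated genes and the highest in 19.2%, with tied values counted for each tied sample. Its part in the results was not tested beyond leaving it out. The main Mhrt results are given with and without it, while some values below are given only with it.

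Mhrt-201 was detected in every sample and made up most of the Mhrt signal in 9 of 10. In knockout hearts it was at 3.09, 2.69, 3.18 and 0.835 FPKM in replicates 2, 3, 4 and 5. In wild-type hearts it was at 1.18, 1.80, 2.12, 2.64, 2.55 and 3.19 FPKM in replicates 1, 3, 4, 5, 6 and 7. The groups overlapped: 3 knockout samples lay close together in the upper part of the wild-type range, and replicate 5 was below every other sample. The means were 2.45 ± 1.10 FPKM in knockout hearts (SD, n = 4) and 2.25 ± 0.706 FPKM in wild-type hearts (SD, n = 6).

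The log2 fold change of Mhrt-201, on the log2(FPKM + 1) scale on which low levels understate a change, was 0.05 (SE 0.257, 95% interval -0.52 to 0.61, limma adjusted p = 0.977). The exact permutation test over samples gave p = 0.876, where 0.00476 is the smallest p that 4 against 6 samples allow. In the same limma fit, 0 of 4182 transcripts (0%) passed an adjusted p of 0.05 (1 without knockout replicate 5 and 1 without wild-type replicate 3), and 323 (7.72%) had an unadjusted p under 0.05. Without knockout replicate 5, the knockout mean was 2.99 ± 0.264 FPKM (SD, n = 3) and the log2 fold change 0.32, with a limma adjusted p of 0.794. A genotype difference in Mhrt-201 was therefore not detected with or without that sample. The values correspond to about 65.9, 53.6, 59.8 and 16.4 fragments in knockout replicates 2, 3, 4 and 5, and to 25.5 to 65.3 fragments in wild-type samples, so few fragments lie behind each value.

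Mhrt-202, the short isoform that stops before Myh7, was detected less evenly. Among knockout hearts it was at 1.44 FPKM in replicate 4 and listed at 0 in replicates 2, 3 and 5. Among wild-type hearts it was at 0.0338, 0.913, 0.884, 3.14 and 1.07 FPKM in replicates 1, 3, 4, 5 and 6 and listed at 0 in replicate 7. It was thus above 0 in 1 of 4 knockout samples and 5 of 6 wild-type samples, which Fisher's exact test did not separate (two-sided p = 0.190). The value counted in wild-type replicate 1 corresponds to about 0.393 fragments, so that sample can hardly be told from those listed at 0. A value of 0 is what the isoform estimate assigned and does not show that the isoform was absent, since exon 1 reads can be assigned to either isoform.

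The log2 fold change of Mhrt-202 was -0.51 (SE 0.409, 95% interval -1.41 to 0.39, limma adjusted p = 0.776, exact permutation p = 0.352), and it was -0.40 without knockout replicate 5 (limma adjusted p = 0.876). With so many values at 0 its size depends on the pseudocount, and it was -1.62 with 0.1 and -3.24 with 0.01 in place of 1, neither past the limma test. The level in wild-type replicate 5 corresponds to about 35.9 fragments. All other non-zero values correspond to 0.393 to 14.6 fragments. A relation between the 2 isoforms was not detected over the 10 samples (r = 0.278, permutation p = 0.429, and rho = -0.0188, p = 0.966). Without the 2 samples farthest from the median of Mhrt-201, r was -0.278, and without knockout replicate 5 it was 0.0965.

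**Figure D2:**
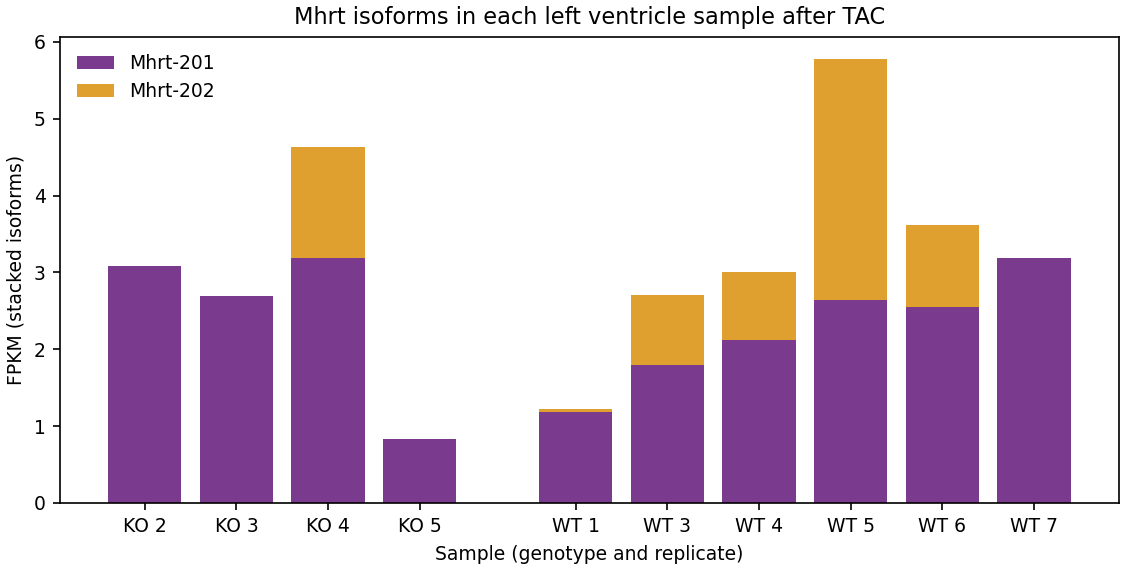
FPKM of Mhrt-201 and Mhrt-202 in each sample as stacked bars, knockout left of wild type, so that the full height of a bar is their sum. The Mhrt-201 values of the genotypes overlap, knockout replicate 5 is lowest at 0.835 FPKM, and Mhrt-202 is listed at 0 in 3 knockout samples and 1 wild-type sample.

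As a share of summed Mhrt, Mhrt-202 took 31.2% in knockout replicate 4 and 0% in the other knockout samples. In wild-type samples it took 2.78%, 33.7%, 29.5%, 54.3%, 29.5% and 0% in replicates 1, 3, 4, 5, 6 and 7. Wild-type replicate 5 was the 1 sample in which the short isoform outweighed the long one. Shares do not depend on library scaling. Their means were 7.79% in knockout and 24.95% in wild-type hearts, a difference of -17.2 percentage points (exact permutation test, two-sided p = 0.229). The difference was -14.6 percentage points when knockout replicate 5 was left out (exact permutation p = 0.286).

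Summed over both isoforms, Mhrt was at 3.09, 2.69, 4.63 and 0.835 FPKM in knockout replicates 2, 3, 4 and 5. In wild-type replicates 1, 3, 4, 5, 6 and 7 it was at 1.22, 2.71, 3.00, 5.78, 3.62 and 3.19 FPKM. The knockout values lay within the wild-type range except for replicate 5, and wild-type replicate 1 was the other low sample. Mean levels were 2.81 ± 1.56 FPKM in knockout hearts (SD, n = 4) and 3.25 ± 1.48 FPKM in wild-type hearts (SD, n = 6). The log2 fold change was -0.19 (SE 0.335, 95% interval -0.93 to 0.54, limma adjusted p = 0.855, exact permutation p = 0.619). Of the 1122 genes and loci in that fit, 2 (0.178%) passed an adjusted p of 0.05, and the median log2 fold change over all of them was -0.03. The count of 2 was 0 without knockout replicate 2 and 1 without each of wild-type replicates 3, 4, 5, 6 and 7. Leaving out knockout replicate 5 turned the sign, to 0.12 (limma adjusted p = 0.931), with a knockout mean of 3.47 ± 1.02 FPKM (SD, n = 3). The interval still includes a change of either sign.

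By level, Mhrt ranked 54th in knockout and 47th in wild-type hearts among 261 annotated genes with a mean of at least 1 FPKM. Their median level was 1.49 FPKM in knockout and 1.55 FPKM in wild-type hearts. No relation was detected with estimated depth (r = 0.103, permutation p = 0.784) or with the share of all FPKM taken by Gm26917 and Gm42418 (r = 0.0623, permutation p = 0.869). That share was 45.0% to 50.1% in knockout and 35.6% to 51.9% in wild-type samples. All 9 such relations of Mhrt and its isoforms had an adjusted p of 0.976.

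The highest summed Mhrt level was 5.54 times the lowest among knockout samples and 4.75 times the lowest among wild-type samples, and for Mhrt-201 alone these ratios were 3.81 in knockout and 2.70 in wild type. The knockout ratios rest on replicate 5, since they were 1.72 for summed Mhrt and 1.19 for Mhrt-201 among the other 3 knockout samples. The mean absolute deviation from the genotype's own median, on the log2 scale, was 0.441 in knockout and 0.333 in wild-type hearts, a difference of 0.11 (exact permutation test, two-sided p = 0.710). Without knockout replicate 5 the sign turned, to -0.13 (exact permutation p = 0.560). For Mhrt-201 the deviations were 0.335 in knockout and 0.252 in wild-type hearts (exact permutation p = 0.810), and for Mhrt-202 they were 0.322 and 0.512 (exact permutation p = 0.648). A genotype difference in spread was not detected.

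The coefficient of variation of summed Mhrt was 55.5% in knockout hearts, where 65.4% of 260 annotated genes varied less and their median was 42.3%. In wild-type hearts it was 45.6%, where 71.6% of 261 genes varied less and their median was 34.2%. Among genes within 2-fold of its mean, 65.9% of 126 varied less in knockout and 76.7% of 103 varied less in wild-type hearts. Without knockout replicate 5, the knockout value was 29.6%, close to the median of 28.8%. Summed Mhrt was thus more variable than most genes of its level in wild-type hearts, and near the median of knockout hearts once replicate 5 was left out. The wild-type value includes replicate 5 at 5.78 FPKM and was not recomputed without it, so the genotypes were not treated alike. For Mhrt-201 alone the wild-type value was 31.4%, beside a median of 30.1% among genes within 2-fold of the mean of summed Mhrt. These are descriptions without a test.

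**Figure D3:**
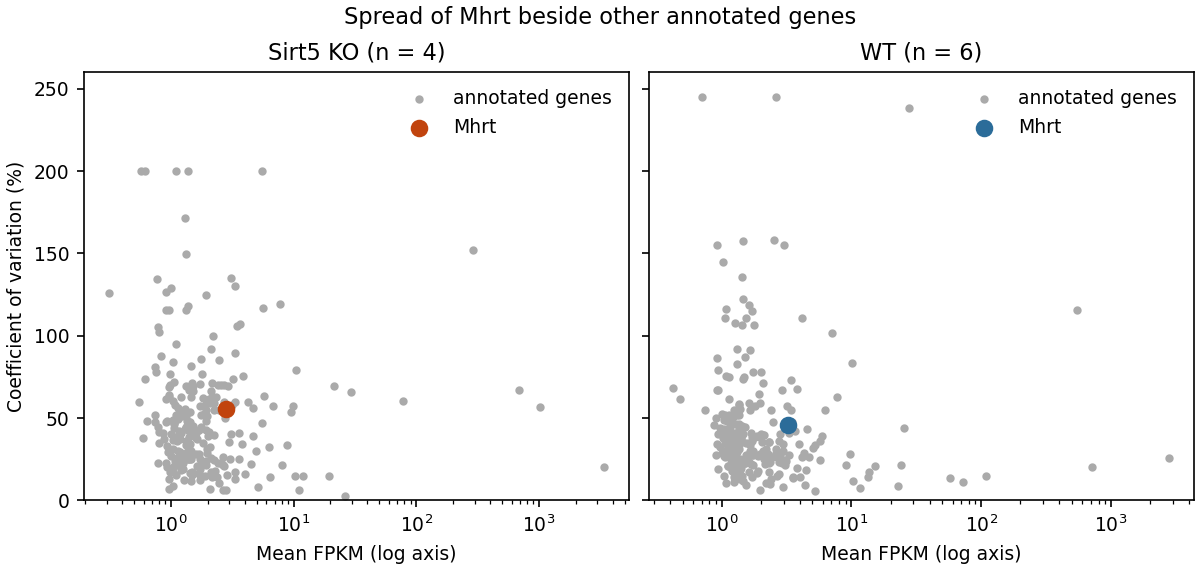
Coefficient of variation of each annotated gene against its mean FPKM (log axis), knockout panel left of the wild-type panel, with Mhrt marked. Mhrt lies at 55.5% in knockout and 45.6% in wild-type hearts, above the medians of 42.3% and 34.2%.

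Mhrt is not the only transcript opposite the Myh7 body. Gm29015 (chr14:54973029-54973359, plus strand, 2 exons, 207 bases) lies inside an intron of Mhrt-201 and has 142 bases (68.6%) opposite Myh7 exons. Gm31251 (chr14:54979393-54991601, plus strand, 3 exons, 1248 bases) begins 5043 bases past the end of Mhrt and has 523 bases (41.9%) opposite Myh7 exons. Near the other myosin, Gm49130, which has 114 bases opposite Myh6 exons, reached 0.0348 FPKM at most and was above 0 in 5 samples. The remaining transcripts within 100 kb, those of Zfhx2os and Gm20687, reached at most 0.0944 FPKM and were listed at 0, in that order.

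Gm29015 was at 4.38, 3.74, 1.59 and 0.539 FPKM in knockout replicates 2, 3, 4 and 5. In wild-type replicates 1, 3, 4, 5, 6 and 7 it was at 2.03, 3.66, 5.89, 6.74, 2.77 and 6.10 FPKM. The groups overlapped, and the lowest sample was again knockout replicate 5. Means were 2.56 ± 1.80 FPKM in knockout (SD, n = 4) and 4.53 ± 1.97 FPKM in wild-type hearts (SD, n = 6), and the log2 fold change was -0.72 (SE 0.383), at a limma adjusted p of 0.517. Without that sample the log2 fold change was -0.37 (limma adjusted p = 0.819).

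Gm31251 was at 1.84, 1.01, 1.16 and 0.311 FPKM in knockout replicates 2, 3, 4 and 5. In wild-type replicates 1, 3, 4, 5, 6 and 7 it was at 1.19, 1.35, 2.05, 1.61, 2.68 and 3.26 FPKM. Here too the groups overlapped and knockout replicate 5 was lowest. Means were 1.08 ± 0.626 FPKM in knockout (SD, n = 4) and 2.02 ± 0.808 FPKM in wild-type hearts (SD, n = 6), and the log2 fold change was -0.55 (SE 0.236), at an unadjusted p of 0.0396 and a limma adjusted p of 0.404. Without knockout replicate 5 it was -0.35 (limma adjusted p = 0.678). An unadjusted p under 0.05 was reached by 131 of the 1122 genes and loci (11.7%). By its limma adjusted p, neither neighbour passed the test across the table.

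**Figure D4:**
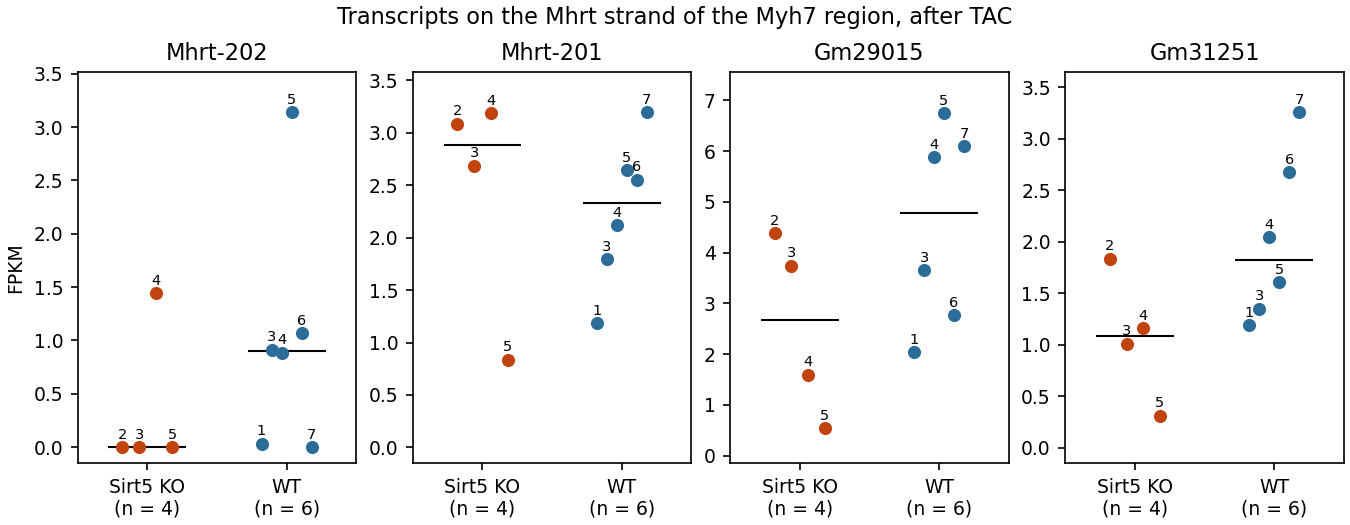
FPKM of the transcripts on the Mhrt strand of the Myh7 region in each sample, knockout left of wild type. Mhrt-201, Gm29015 and Gm31251 share their lowest sample, knockout replicate 5, at 0.835, 0.539 and 0.311 FPKM.

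Over the 10 samples, log2 levels of Mhrt-201 and Gm31251 gave r = 0.661 (permutation p = 0.0395, adjusted p = 0.107 over 4 relations of the isoforms with both neighbours) and rho = 0.382 (permutation p = 0.281). Mhrt-201 and Gm29015 gave r = 0.624 (permutation p = 0.0535, adjusted p = 0.107) and rho = 0.455 (permutation p = 0.193). With all samples pooled, both relations rest on the extreme samples, since r was 0.176 for Gm31251 and -0.155 for Gm29015 without the 2 samples farthest from the median of Mhrt-201. They were 0.348 and 0.263 without knockout replicate 5. Leaving out knockout replicate 4 brought both past the adjustment, with r = 0.765 for Gm31251 (exact permutation, adjusted p = 0.0296) and r = 0.829 for Gm29015 (exact permutation, adjusted p = 0.0244). Within the 6 wild-type samples alone, r was 0.831 for Gm31251 (exact permutation p = 0.0375, adjusted p = 0.150) and 0.712 for Gm29015 (exact permutation p = 0.101, adjusted p = 0.203). After each genotype's mean was subtracted from every log2 level, which leaves the variation among samples of one genotype, r was 0.864 for Gm31251 (permutation p = 0.00054, adjusted p = 0.00216) and 0.756 for Gm29015 (permutation p = 0.00887, adjusted p = 0.0177). For Gm31251 this r was 0.785 without knockout replicate 5 (exact permutation, adjusted p = 0.0346) and 0.730 without the 2 samples farthest from the median. With knockout replicate 5 and then the 2 farthest remaining samples left out, it was 0.505, so its size too depends on extreme samples. For Gm29015 it was 0.539 without knockout replicate 5 (exact permutation, adjusted p = 0.269) and 0.239 without the 2 farthest samples, so that relation rests on those samples. These settings were chosen after seeing the data. The permutations shuffled the centred levels across both genotypes without allowing for the subtracted means, so those p-values may be too small. By these values, samples of one genotype with more Mhrt-201 tended to have more Gm31251. Neither the pooled value nor that of the 6 wild-type samples alone passed the adjustment. Mhrt-202, which lies outside Myh7, gave r = 0.170 with Gm31251 and 0.282 with Gm29015 over the 10 samples. Mhrt-201, Gm29015 and Gm31251 all lie opposite Myh7 exons, and the part of Myh7 reads in these values was not tested.

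Mhrt was next set beside 38 other long non-coding RNAs known from heart or abundant in it, of which 32 were in the table and 22 had a mean of at least 1 FPKM. By mean level they ran from Rmrp (the RNA of RNase MRP), Malat1 (an abundant nuclear RNA), Hand2os1 (divergent from the heart factor gene Hand2), Airn (imprinted, antisense to Igf2r) and Carmn (of smooth muscle) down through Lncpint, Gas5, Mir99ahg, Tug1, Snhg1 and Mir22hg. Mhrt came 12th of 23, between Mir22hg at 4.55 FPKM and Meg3 at 2.82 FPKM. Below it stood Meg3 and H19 (imprinted RNAs listed here as fibroblast markers), Zfas1, 1010001N08Rik, Tbx3os1, Pvt1, Neat1 (the scaffold of nuclear paraspeckles), Bvht (Braveheart, needed in mouse for cardiac commitment of mesoderm), Ftx, Gm14005 and Rmst. Mhrt ran from 0.835 to 5.78 FPKM over the samples, a range that takes in the means of all listed RNAs from Mir99ahg at 5.38 FPKM down to Rmst at 1.13 FPKM, so its place among these neighbours lies within its spread.

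Between genotypes, 12 of the 22 had a higher and 10 a lower mean log2 level in knockout hearts, with a median log2 fold change of 0.06 against -0.03 over all 1122 genes and loci. None of the 22 passed the limma test. Unadjusted, 2 had a p under 0.05 on the higher and 3 on the lower side, beside 131 of all 1122 genes and loci (11.7%), and the smallest adjusted p was 0.0521, for 1010001N08Rik. Its level was 0.768 to 1.495 FPKM in knockout and 1.98 to 2.60 FPKM in wild-type hearts, without overlap. Rmst (0.140 to 0.825 against 1.21 to 2.15 FPKM) and Tbx3os1 (0.893 to 1.37 against 1.46 to 2.41 FPKM) did not overlap either. How many of all 1122 genes and loci lack overlap was not counted, so this is not a result about the list. Rmrp was listed at 0 in knockout replicate 5 and in wild-type replicates 3, 5 and 6 and was between 824 and 1434 FPKM elsewhere, so its samples fall into separate clusters and it was left out of the correlations over the list.

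The 21 others were correlated with summed Mhrt over the 10 samples. Pearson's r was positive for 9 and negative for 12, with a range of -0.716 to 0.512 and a median of -0.157. None passed an adjusted p of 0.05 over the 21 relations. Unadjusted, 2 of the 21 had a permutation p under 0.05 for r, Malat1 and Meg3, and 0 had one for rho. The median moved to 0.0743 without knockout replicate 5, with 12 positive, and to -0.000681 within the 6 wild-type samples, with 10 positive.

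Malat1 gave the most negative value (r = -0.716, permutation p = 0.00352, adjusted p = 0.0739; rho = -0.636, permutation p = 0.0547, adjusted p = 0.655). Its level in knockout replicate 5 was far above every other sample, while Mhrt was at its lowest there. Without that sample r was -0.592 (exact permutation p = 0.0951), and without the 2 samples farthest from the median of Mhrt it was -0.447, so the size of the relation rests in part on those samples. Within the 6 wild-type samples, where Malat1 ran from 58.4 to 81.8 FPKM, r was -0.871 (exact permutation p = 0.0375, adjusted p = 0.486). The direction was negative in each of these subsets, and none of them passed the adjustment. Leaving out knockout replicate 3 alone brought the relation past it (r = -0.73, exact permutation, adjusted p = 0.00584).

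Meg3 was at 1.30, 2.39, 3.76 and 7.92 FPKM in knockout replicates 2, 3, 4 and 5, and at 0.517 to 2.99 FPKM in wild-type samples. It gave r = -0.694 with Mhrt (permutation p = 0.0291, adjusted p = 0.271) and rho = -0.515 (permutation p = 0.134). Its r was -0.413 without knockout replicate 5 (exact permutation p = 0.256), -0.463 without the 2 farthest samples and -0.751 within wild type (exact permutation p = 0.136). Its lowest sample, wild-type replicate 5, was the one with the highest Mhrt. Meg3 belongs to the fibroblast list that was high in knockout replicate 5, and the part of cell composition in this value was not tested.

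Rmst, known in neural cells as a partner of Sox2, had the highest r with Mhrt, 0.512 (permutation p = 0.128, adjusted p = 0.381), which was 0.110 without knockout replicate 5. Within the 6 wild-type samples it was 0.824 (exact permutation p = 0.0694, adjusted p = 0.486). After each genotype's mean was subtracted it was 0.691. Rmst was at 0.140 to 0.825 FPKM in knockout and 1.21 to 2.15 FPKM in wild-type samples. Hand2os1 and Carmn, both among the 5 most abundant RNAs of the list, gave r = 0.381 and 0.130, which were -0.0200 and -0.189 without knockout replicate 5. Braveheart gave r = 0.282 with summed Mhrt. With Mhrt-201 alone Braveheart gave r = 0.466 over all 10 samples (permutation p = 0.174) and r = 0.821 without knockout replicate 5 (exact permutation p = 0.00517, adjusted p = 0.217 over the 42 relations of both isoforms). For the isoforms separately, 0 of the 42 relations passed the adjustment, with a smallest adjusted p of 0.334 for Mhrt-201 and 0.493 for Mhrt-202.

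**Figure D5:**
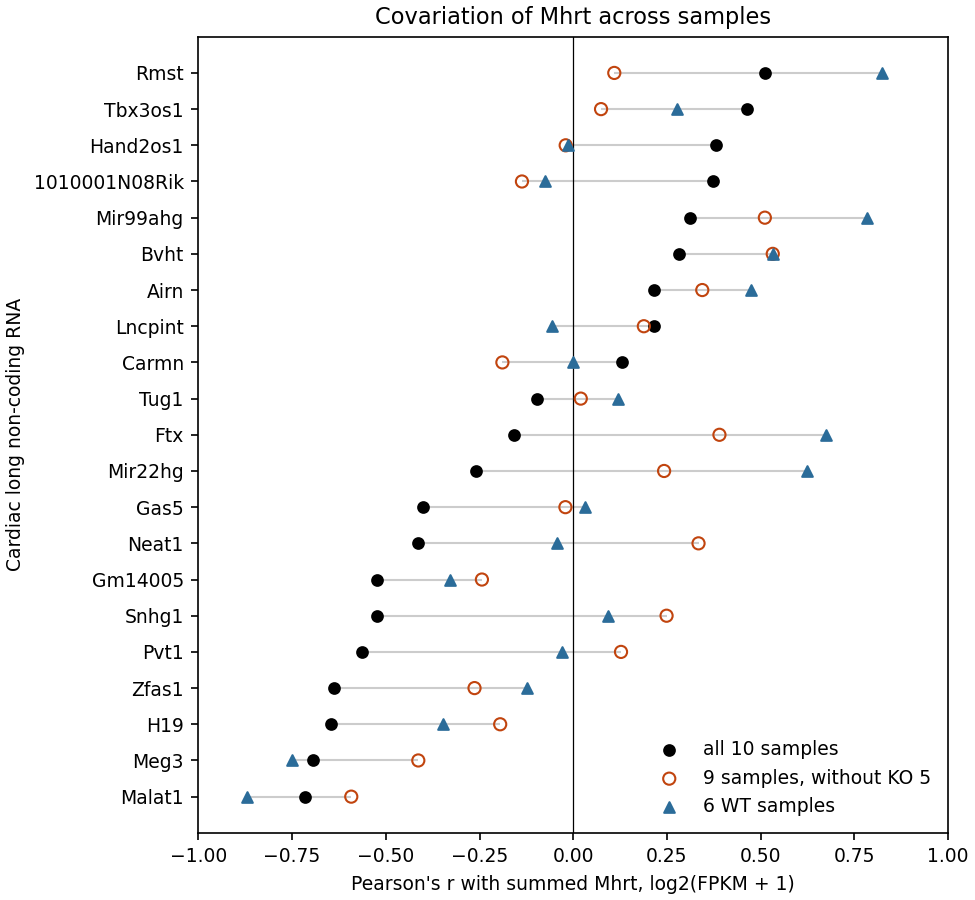
Pearson's r of summed Mhrt with each of 21 cardiac long non-coding RNAs on log2(FPKM + 1), over all 10 samples, without knockout replicate 5, and within the 6 wild-type samples. Values over all samples run from -0.716 for Malat1 to 0.512 for Rmst, of which 9 are positive, against 12 positive without knockout replicate 5.

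Across all 260 other annotated genes with a mean of at least 1 FPKM, the Spearman correlation with summed Mhrt had a median of 0.0487 and quartiles of -0.2 and 0.312, and it was positive for 140. The following genes are the ends of that ranking and are given as a description with no test. The pattern most like that of Mhrt over the 10 samples was that of Gm48866 (chr12:70674123-70675456, plus strand, lincRNA) and of Gm49083 (chr14:43804696-43812383, minus strand, lincRNA), each with rho = 0.842. After them came Gm10516 (rho = 0.745, opposite Rcor3), 2310009A05Rik (rho = 0.673, opposite Pigb) and Gm13111 (rho = 0.636, antisense class). Without knockout replicate 5, which was the lowest sample for all 5, these values were 0.783, 0.783, 0.650, 0.550 and 0.500.

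Within the 6 wild-type samples, Gm48866 had rho = 0.943 with Mhrt. It was at 0.800, 1.51, 1.80 and 0.106 FPKM in knockout replicates 2, 3, 4 and 5. In wild-type replicates 1, 3, 4, 5, 6 and 7 it was at 0.564, 1.62, 1.99, 2.32, 2.11 and 1.75 FPKM. As for Mhrt, knockout replicate 5 and wild-type replicate 1 were the lowest of their groups and wild-type replicate 5 the highest.

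At the other end stood Gm48798 (rho = -0.758, in Utrn on the same strand), Gm28037 (rho = -0.701) and Gm28529 (rho = -0.673, opposite Epc1). Gm28037, which overlaps Rpl24 and Zbtb11 on the same strand, was at 22.2 FPKM in knockout replicate 5 and 15.9 FPKM in wild-type replicate 1 and listed at 0 in the other 8 samples. Those are the samples with the lowest Mhrt of each genotype. With so many values at 0, its rank correlation rests on these 2 samples.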

How the data were processed

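FPKM per transcript for 10 samples were deposited in 1 table. The authors depleted rRNA, digested the second cDNA strand, aligned to GRCm38 with HISAT2 (no version given) and obtained FPKM from StringTie 1.2.0, per the design text of the series. HTSeq 0.6.1 is named there too, and its counts were not used here. More than 1 depletion kit and instrument is named, without a link to samples, so batches of that kind could not be checked.

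Transcript identifiers were matched to GENCODE M21 (18969 of 19112 Ensembl identifiers; 1629 transcripts were assembled by StringTie), and FPKM were summed per gene. Genes with a mean of at least 1 FPKM (1122) and transcripts with a mean of at least 0.1 FPKM (4182) were fitted with limma 3.58.1 in R 4.3.3 on log2(FPKM + 1), with a trended prior, genotype as the 1 term and Benjamini-Hochberg adjustment over each whole table. The fit was tested on simulated data. Exact permutation tests used all 210 splits, and correlations used 100000 resamples for 10 samples and full enumeration for fewer. Fragment numbers were estimated from the smallest steps of FPKM times length in transcripts of 1 exon, and they cover counting error only.

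Genes named were every Mhrt transcript, members of a cardiac list with a mean of at least 1 FPKM, the 5 highest and 3 lowest annotated genes by rho with Mhrt, transcripts within 100 kb and a pathway list of 19 genes. The members and lists were chosen with earlier results of these data known. Alternatives covered pseudocounts, scalings, priors, filters, replicate blocks and leaving out each sample. Replicate numbers were not treated as pairs.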

Additional observations from a re-analysis of the deposited data

Results flagged for a closer look

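A sample's gap to its nearest neighbour was set against its group's range, with Dixon's 95% limit, in 40 groups of values, of which 8 held a sample past the limit. Chance flags about 1 group in 20 (5%), and the groups share samples, so the flags are not independent.

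Among Mhrt values, Mhrt-202 in knockout replicate 4 was flagged at 1.44 FPKM, with the other knockout samples listed at 0, and so was its share of 31.2% of summed Mhrt. With all others at 0, any value above 0 passes the limit, so both flags follow from the zeros and state the same fact. In wild type, Mhrt-202 in replicate 5 stood apart at 3.14 FPKM, against at most 1.07 FPKM in the others. Neither Mhrt-201 nor summed Mhrt had a sample past the limit, knockout replicate 5 included.

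Among the genes set beside Mhrt that these groups covered, Malat1 stood apart in knockout replicate 5 at 951 FPKM, against 59.8 to 78.9 FPKM in the other knockout samples. Carmn was at 12.5 FPKM in knockout replicate 3, against 9.42 to 9.56 FPKM in the others. Meg3 was at 0.517 FPKM in wild-type replicate 5, against 2.13 to 2.99 FPKM. Gm28037 was at 22.2 FPKM in knockout replicate 5 and at 15.9 FPKM in wild-type replicate 1, and it was listed at 0 in all other samples of both groups. Its flags too follow from the zeros.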

How the results depend on the processing

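Neither Mhrt nor its isoforms passed the limma test under any alternative run. The log2 fold change of summed Mhrt ran from -0.42 to 0.12 when each sample was left out, with 0.12 without knockout replicate 5, and was -0.47 with a replicate block. That of Mhrt-201, near 0, turned sign to -0.0758 with a common sum per sample and to -0.0551 with a replicate block, and ran from -0.0720 to 0.32 over left-out samples. That of Mhrt-202 ran from -0.83 to -0.27, was -0.87 with a replicate block, and had no value at a mean of at least 1 FPKM. The difference in share ran from -25.0 to -11.3 percentage points and that in spread from -0.13 to 0.23. The number of genes and loci called, 2, became 0 with a pseudocount of 0.01, a replicate block or no filter, 1 with no intensity trend or a mean of at least 0.1 FPKM, 4 with quantile normalization, 5 with a robust prior and 7 with a common sum, and ran from 0 (without knockout replicate 2) to 2 over left-out samples, with 1 without each of wild-type replicates 3, 4, 5, 6 and 7. The number of transcripts called, 0, became 4 with a pseudocount of 0.01 and 2 at a mean of at least 1 FPKM, and ran from 0 to 1. Correlations past the adjustment numbered 0 to 1 over left-out samples, the 1 being Malat1 without knockout replicate 3 (r = -0.73, adjusted p = 0.00584, exact permutation, against 0.0671 to 0.962 without any other sample). The relations of Mhrt-201 with Gm31251 and Gm29015 were recomputed under settings chosen after seeing the data, with r of 0.348 to 0.765 and 0.263 to 0.829 over left-out samples. The cause of these moves was not tested. A common sum moved the median log2 fold change of all genes to -0.14. Same-numbered samples 3, 4 and 5 had deviations correlating at -0.163, 0.176 and 0.0807, and 1 of the 3 numbers matched itself best, so the numbers were not taken as pairs. Estimated fragments of at most 65.9 per sample limit precision for Mhrt.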
